A study of Mus musculus with 8 samples.

Results

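The Notch pathway was followed here through 10 genes chosen by name: the receptors Notch1, Notch2 and Notch3, the ligands Jag1, Jag2 and Dll1, the ligand-like gene Dlk2, the glycosyltransferase gene Lfng, and the targets Hes1 and Hey1. All 10 were found among the 55276 gene symbols of the count table, and all 10 passed the filter on low counts, as did 17344 genes in all. RNA was sequenced in bulk from the esophageal epithelium of C57BL6 mice aged 14 to 15 weeks, for which the labels name no mutation and no drug. Live epithelial cells carrying integrin beta-1, a surface protein of basal cells, were sorted by Cyto-ID, a dye that collects in autophagic vesicles. Each of 4 animals (Female1, Female2, Male1 and Male2) gave 1 library of cells with little dye, called Cyto-ID Low, and 1 of cells with much dye, called Cyto-ID High. The comparison asks how Notch gene expression differs between epithelial cells with low and with high autophagic vesicle content.

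Notch receptors are single-pass membrane proteins that are activated by ligands on a neighbouring cell. Binding of a Jagged or Delta-like ligand lets an ADAM protease and then the gamma-secretase complex cut the receptor, and the freed intracellular part joins the DNA-binding protein Rbpj and Mastermind-like coactivators to switch on genes such as those of the Hes and Hey families. In stratified epithelia the pathway is known for its part in the step by which basal cells leave the basement membrane and differentiate.

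The libraries held 26285150 to 29301054 counts each. The labels call the cells squamous, and the 8 basal and 8 suprabasal keratinocyte markers examined were present in every library. All 8 basal markers were lower and all 8 suprabasal markers higher in Cyto-ID High, with summed levels of 20926 to 24802 against 2722 to 4461 CPM for the basal genes (CPM are counts scaled to a common library size by edgeR's trimmed mean) and 8715 to 25210 against 137264 to 235964 CPM for the suprabasal genes. Itgb1, the gene of the sorted surface protein, averaged 370 CPM in Low and 68.2 CPM in High. Some libraries stood apart. The 8 gastric markers summed to 18.6 CPM in Low Female2 and 115 CPM in High Female2, and to at most 1.03 CPM in the other 6 libraries. Markers of endothelium, fibroblasts, muscle and mural cells were lowest in High Male2, at 2.01, 36.6, 4.68 and 3.34 CPM, and in the other 3 High libraries their sums were at least 12.1, 147, 19.2 and 12.4 CPM. Leukocyte markers summed to 46.3 to 79.2 CPM in Low and 24.6 to 94.8 CPM in High, and glial markers to 4.91 to 7.09 and 0.669 to 11.0 CPM. In these lists Cd68 passed the edgeR test given below as higher in High (log2 fold change 2.13). Cspg4, Dcn, Acta2 and Cd207 passed as lower (−3.58, −2.87, −1.54 and −2.24), and no other marker of these lists passed, beside 48.7% of all tested genes. The part of these marker shifts in the results was not tested, and values without both libraries of Female2 or of Male2 are given where they change a call among the 10 Notch genes or the pathway genes chosen by rule.

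Between the fractions, 9 of the 10 Notch genes passed the test (edgeR, quasi-likelihood F test, p adjusted after Benjamini and Hochberg under 0.05). Notch2, Notch3 and Jag1 rose in Cyto-ID High, Notch1, Jag2, Dll1, Dlk2, Lfng and Hes1 fell, and Hey1 did not pass. Of all tested genes 48.7% passed, 23.4% higher and 25.3% lower, so that calls were common across the table. The median log2 fold change was −0.95 over the 10 Notch genes and −0.09 over all tested genes. With the animal as a replicate block the same 9 genes passed, beside 53.8% of all genes (25.4% higher, 28.5% lower). In 8 of the 10 genes the 4 values of one fraction lay all above the 4 of the other, 3 higher and 5 lower in High, which held for 48.6% of the tested genes (23.6% higher, 24.9% lower). In bulk RNA, fewer cells of a type and less RNA per cell cannot be told apart.

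**Figure D1:**
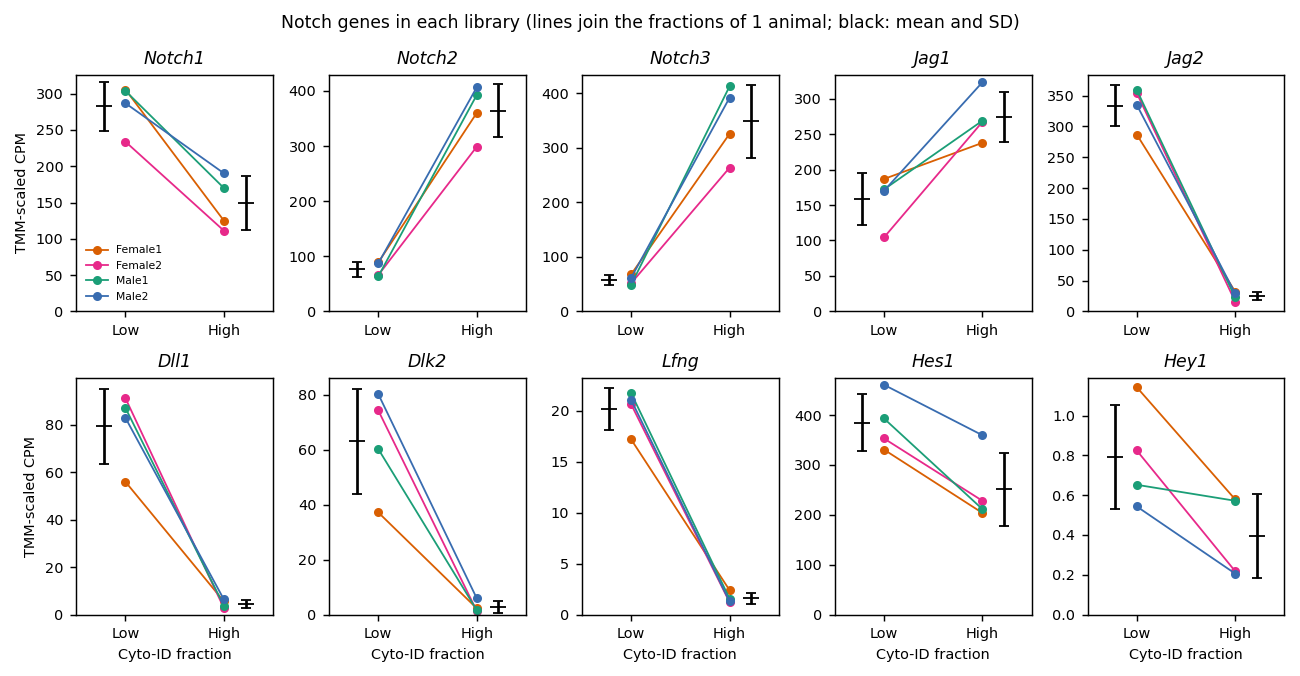
Expression of the 10 Notch genes in each library, in trimmed-mean scaled CPM, with coloured lines joining the Cyto-ID Low and High library of an animal and black bars for the mean and SD of 4 animals. Notch2, Notch3 and Jag1 go up in all 4 animals and the other 7 genes go down in all 4, with fractions that overlap for Hes1 and Hey1.

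The sequence just before the start of transcription is shown for the receptors that rose together and for a ligand and a modifier that fell together. Windows of 250 bases before the RefSeq start (GRCm38.p6) were matched for 8 of the 10 genes, all but Hes1 and Hey1, with 2 starts each for Dll1 and Dlk2. They are printed 5′ to 3′ on the gene's strand for Notch2 (chr3:98013288-98013537, plus), Notch3 (chr17:32166891-32167140, minus), Jag2 (chr12:112929496-112929745, minus) and Lfng (chr5:140607091-140607340, plus). Capitals mark the core of the motif bound by Rbpj, TGGGAA, on either strand.
Notch2: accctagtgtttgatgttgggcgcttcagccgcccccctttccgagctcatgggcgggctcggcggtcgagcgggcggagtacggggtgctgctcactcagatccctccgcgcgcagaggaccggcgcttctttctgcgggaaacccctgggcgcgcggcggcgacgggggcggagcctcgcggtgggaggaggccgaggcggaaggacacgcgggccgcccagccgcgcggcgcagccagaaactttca
Notch3: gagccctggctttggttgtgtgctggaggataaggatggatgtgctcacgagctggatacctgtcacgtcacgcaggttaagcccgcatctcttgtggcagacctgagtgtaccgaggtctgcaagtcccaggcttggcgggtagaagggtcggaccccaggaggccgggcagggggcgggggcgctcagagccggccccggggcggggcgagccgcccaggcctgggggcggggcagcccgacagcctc
Jag2: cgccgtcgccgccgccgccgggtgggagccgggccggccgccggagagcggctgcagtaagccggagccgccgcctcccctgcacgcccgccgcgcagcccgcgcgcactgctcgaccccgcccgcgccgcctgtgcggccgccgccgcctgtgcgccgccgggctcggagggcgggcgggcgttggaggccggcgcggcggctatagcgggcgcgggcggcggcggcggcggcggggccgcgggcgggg
Lfng: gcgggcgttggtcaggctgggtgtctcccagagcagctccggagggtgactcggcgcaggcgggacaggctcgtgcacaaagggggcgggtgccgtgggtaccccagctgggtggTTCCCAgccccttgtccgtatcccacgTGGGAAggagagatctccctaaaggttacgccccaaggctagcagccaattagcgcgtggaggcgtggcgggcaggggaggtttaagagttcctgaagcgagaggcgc
The Rbpj core was found only in the window of Lfng among the 8 matched genes, with 1 match on the gene's strand that begins 108 bases before the start and 1 on the other strand that begins 135 bases before it. Of 32851 windows of the same length 21.6% held this core. The GC box GGGCGG, which did not overlap those matches, stood 5 times in the window of Notch2, 4 times in that of Notch3, 5 times in that of Jag2 and once in that of Lfng, counting both strands. It also stood 5 times in the window of Notch1 and in 1 of the 2 windows of Dlk2, and in none of Jag1 or Dll1, so it was found in genes that rose and in genes that fell. Of all windows 32.7% held it. The window of Jag2 was 87.2% G or C, where the median window had 52.4%. A match describes letters only, and the data hold no measure of binding.

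Notch1 is the receptor best known in keratinocytes, and its gene lies on chromosome 2 (26457903 to 26516663, minus strand, GRCm38). In the order Female1, Female2, Male1 and Male2 it was at 306, 234, 304 and 287 CPM in Cyto-ID Low and at 125, 111, 170 and 190 CPM in Cyto-ID High. The lowest Low library, Female2, still lay above the highest High library, Male2. Notch1 was 1.93-fold lower in High (log2 fold change −0.95, SE 0.17, adjusted p 0.00107, edgeR), from 283 ± 34 to 149 ± 37 CPM (SD, n = 4 each).

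Notch2 (chromosome 3, 98013527 to 98150361, plus strand) and Notch3 (chromosome 17, 32120820 to 32166852, minus strand), the other receptors of the set, went the opposite way. Notch2 had 88.9, 65.8, 63.6 and 87.1 CPM in the Low libraries and 360, 299, 393 and 407 CPM in the High libraries, in the same order of animals. It rose 4.75-fold (log2 fold change 2.25, SE 0.18, adjusted p 1.83e-05, edgeR). Every High library lay far above every Low library, and the spread within each fraction was small beside that gap, at 76.4 ± 13.5 and 364 ± 48 CPM (SD, n = 4 each).

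Notch3 was at 67.8, 51.5, 48.7 and 61.4 CPM in Cyto-ID Low and at 326, 264, 413 and 392 CPM in Cyto-ID High. It rose 6.01-fold (log2 fold change 2.59, SE 0.19, adjusted p 1.44e-05, edgeR), from 57.4 ± 8.8 to 348 ± 68 CPM (SD, n = 4 each). Notch3 is also a well known gene of mural cells, the pericytes and smooth muscle of vessels. The 6 mural markers Rgs5, Pdgfrb, Kcnj8, Abcc9, Cspg4 and Higd1b summed to 36.0 to 59.2 CPM in Low and 3.34 to 37.5 CPM in High. Of the 5 tested, 1 was called, Cspg4, lower in High, as were 25.3% of all tested genes. In High Male2, where Kcnj8 and Higd1b had no count and Rgs5, Pdgfrb, Abcc9 and Cspg4 were at 0.154, 0.36, 0.0514 and 2.78 CPM, Notch3 stood at 392 CPM. Cspg4 was higher there than in High Female2 (0.871 CPM) and High Male1 (1.49 CPM). The part of mural cells in the Notch3 values was not tested. Notch4, the receptor of endothelium, ran from 0.932 to 2.07 CPM in Low and from 0.103 to 2.97 CPM in High, and its difference of −0.05 (SE 0.60, adjusted p 0.958, edgeR) did not pass.

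Levels of different genes were compared as CPM per kilobase of the annotated transcript with the longest coding region. On this scale Notch1 was the leading receptor in Cyto-ID Low, at 29.8 ± 3.5 CPM per kb, against 7.27 ± 1.28 for Notch2 and 7.16 ± 1.10 for Notch3 (SD, n = 4). In Cyto-ID High the order was turned round, with Notch3 at 43.5 ± 8.4, Notch2 at 34.7 ± 4.6 and Notch1 at 15.7 ± 3.9 CPM per kb. The values of Notch2 and Notch3 overlapped in both fractions, whereas Notch1 overlapped with neither. As a share of the 3 receptors together, Notch1 made up 65.4% to 72.5% in the Low libraries and 15.0% to 18.6% in the High libraries.

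Apart from the prior count of 2 in log2 CPM, which weighs most at low counts, such ratios do not depend on how libraries are scaled to each other. In this way 5 pairs of genes were compared within libraries. The log2 ratio of Notch2 to Notch1, per length, was −2.04 ± 0.24 in Low and 1.17 ± 0.20 in High, a difference of 3.21. The log2 ratio of Notch3 to Notch1 was −2.06 ± 0.23 and 1.48 ± 0.14, a difference of 3.54. Both ratios were higher in High than in Low in 4 of 4 animals, and the ranges of the fractions lay well apart. That separation follows from the genes' own values, which do not overlap, so the ratios are a description of size and are given with no p.

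**Figure D2:**
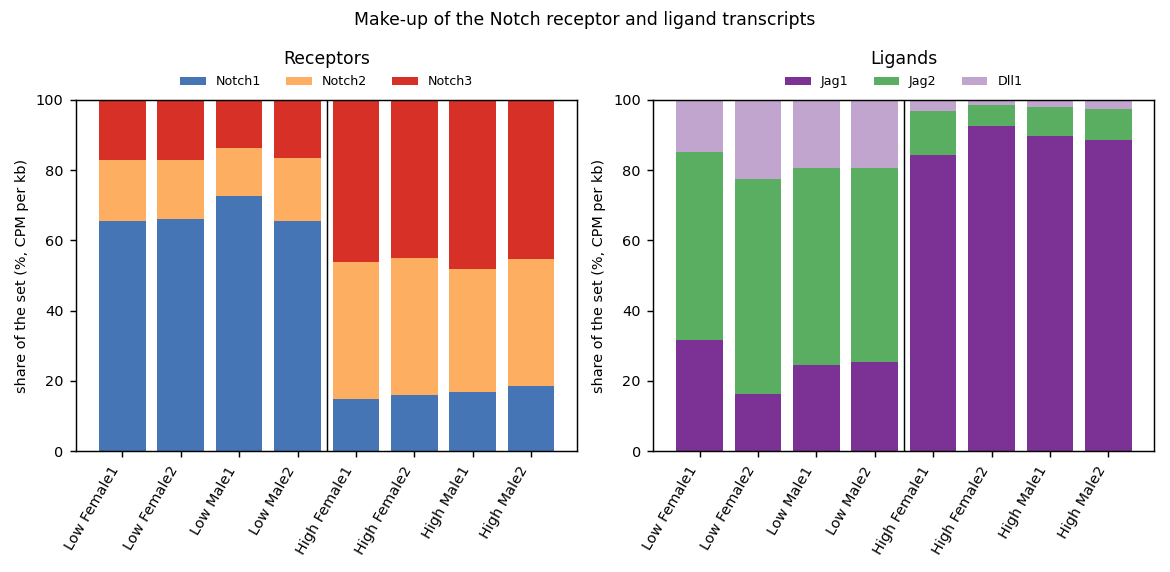
Share of each receptor among Notch1, Notch2 and Notch3 (left) and of each ligand among Jag1, Jag2 and Dll1 (right) in every library, in percent of the summed CPM per kb. Notch1 holds at least 65.4% of the receptor transcripts in each Low library and at most 18.6% in each High library, and Jag1 holds at most 31.7% of the ligand transcripts in Low and at least 84.4% in High.

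Among the ligands, Jag2 (chromosome 12, 112907819 to 112929776, minus strand), 1 of the Jagged ligands, had 287, 354, 359 and 335 CPM in the Low libraries and 32.0, 15.8, 22.6 and 29.2 CPM in the High libraries. Every Low library lay far above every High library, with the highest High value in Female1. Jag2 was 13.4-fold lower in High, with a log2 fold change of −3.74 and no overlap (SE 0.24, adjusted p 1.27e-05, edgeR). Its change was larger in size than that of 98.8% of the tested genes.

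Dll1, a Delta-like ligand (chromosome 17, 15367354 to 15376872, minus strand), fell with it. It was at 56.0, 91.2, 87.1 and 82.9 CPM in Cyto-ID Low, lowest in Female1, and at 5.56, 2.74, 3.70 and 6.38 CPM in Cyto-ID High. It was 17.3-fold lower in High, with a log2 fold change of −4.11 (SE 0.28, adjusted p 1.31e-05, edgeR). The High libraries held only 63 to 144 counts of Dll1, against 1812 to 3317 in Low.

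Jag1 (chromosome 2, 137081456 to 137116644, minus strand), the other Jagged ligand, went the other way. It had 187, 104, 172 and 170 CPM in the Low libraries and 238, 267, 269 and 323 CPM in the High libraries. No Low library reached the lowest High library, and the rise was smallest in Female1 and largest in Female2, at 0.35 and 1.36 log2 CPM. Jag1 rose by 0.79 (SE 0.19, adjusted p 0.00669, edgeR), from 158 ± 37 to 274 ± 36 CPM (SD, n = 4 each). With scaling by total counts only its difference was 0.23 and did not pass (edgeR adjusted p 0.255).

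Set against each other within libraries, Jag2 and Jag1 changed places, and Dll1, on average already below Jag1 in Low, lay farther below it in High. The log2 ratio of Jag2 to Jag1, per length, was 1.24 ± 0.48 in Low and −3.36 ± 0.48 in High, a difference of −4.60. For Dll1 to Jag1 it was −0.34 ± 0.63 and −5.30 ± 0.52, a difference of −4.96. Both ratios were lower in High in 4 of 4 animals, which again follows from genes whose own values do not overlap. Jag2 made up 56.5% ± 3.3 of the ligand transcripts per length in Low and 8.90% ± 2.67 in High, and Dll1 19.1% ± 3.1 and 2.31% ± 0.73 (SD, n = 4 each).

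Summed per length, the 3 receptors came to 44.2 ± 5.0 CPM per kb in Low and 93.9 ± 16.6 in High, and the 3 ligands to 116 ± 9 and 55.0 ± 6.8 (SD, n = 4 each). Receptor transcripts thus stood at 0.329 to 0.468 per ligand transcript in the Low libraries and at 1.42 to 2.00 in the High libraries. These sums describe the chosen genes and were not tested.

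Dll4, the Delta-like ligand of endothelium, was at 0.870 to 1.61 CPM in Low and 0.206 to 1.79 CPM in High, with a difference of −0.11 (SE 0.52, adjusted p 0.889, edgeR). Its lowest value, like that of Notch4, was in High Male2, the library in which the 8 endothelial markers also had their lowest sum, 2.01 CPM against 12.1 to 38.4 in the other 7 libraries. Dll3 and Dlk1 had too few counts to be tested.

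Dlk2 encodes an EGF-repeat protein related to the Delta-like ligands that lacks the domain by which those ligands bind the receptor, and its gene lies on chromosome 17 (46297421 to 46303271, plus strand). Its levels were 37.2, 74.3, 60.3 and 80.3 CPM in Cyto-ID Low and 2.28, 1.35, 1.64 and 5.97 CPM in Cyto-ID High. The fall was the largest of the 10 genes, at −4.57 (SE 0.43, adjusted p 2.98e-05, edgeR), or 23.7-fold, and larger in size than that of 99.9% of the tested genes. Per animal it ran from −3.73 log2 CPM in Male2 to −5.71 in Female2, and the High libraries rested on 31 to 116 counts. In relative terms Dlk2 was also the most variable of the 10 genes in High, with a coefficient of variation of 76.3%, against 30.4% in Low.

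Lfng encodes lunatic fringe, which adds a sugar to the EGF repeats of Notch and so shifts the response of the receptor between Delta-like and Jagged ligands (chromosome 5, 140607320 to 140615545, plus strand). It stood at 17.2, 20.6, 21.7 and 21.0 CPM in the Low libraries and at 2.39, 1.22, 1.56 and 1.29 CPM in the High libraries. The Low libraries were close to each other and none came near the High range. Lfng fell by 3.63 (SE 0.24, adjusted p 1.27e-05, edgeR), or was 12.4-fold lower, with 25 to 62 counts in the High libraries. It is the gene whose upstream window, printed above, holds the Rbpj core.

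Among the other sugar-transferring enzymes of the pathway, Mfng, Rfng and Pofut1, named here to complete the group after their values were seen, did not pass. Poglut1, which puts glucose on the EGF repeats, passed at −0.70 (SE 0.16, adjusted p 0.00573, edgeR), from 23.1 ± 4.0 to 14.2 ± 1.9 CPM (SD, n = 4 each). Poglut1 was named after its value was seen, as the single gene called of these 4 (25% beside 48.7% of all genes), and 3 of the 4 were called lower under total counts only, beside 49.1% of all genes. Rfng, a further fringe, was at 45.7 ± 2.2 and 36.7 ± 10.0 CPM, a difference of −0.33 that did not pass (edgeR adjusted p 0.16). Rfng and Pofut1 passed under total counts only, at −0.92 and −0.79 (edgeR adjusted p 0.000229 and 0.00314).

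Hes1 encodes a transcriptional repressor of the basic helix-loop-helix class and is the classical Notch target (chromosome 16, 30064384 to 30067796, plus strand). Per length it was the most abundant of the 10 genes in both fractions, at 262 ± 39 CPM per kb in Low and 171 ± 50 in High (SD, n = 4 each). In CPM it had 331, 353, 393 and 461 in the Low libraries and 204, 228, 211 and 359 in the High libraries. High Male2 lay within the range of the Low libraries and the other 3 High libraries below it. Hes1 was lower in High in all 4 animals, by 0.36 to 0.89 log2 CPM, and fell by 0.62 (SE 0.19, adjusted p 0.0195, edgeR). Without High Female1 the difference was −0.58 (adjusted p 0.0541 by edgeR) and without both libraries of Female2 −0.61 (adjusted p 0.0565), so the call was lost in both cases with a difference of about the same size. Scaled by total counts only, the difference was −1.21, and that of Notch1 −1.51.

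Hey1, a related repressor and target (chromosome 3, 8663359 to 8667256, minus strand), was barely detected, with 18 to 37 counts in the Low and 4 to 15 counts in the High libraries. It was at 1.14, 0.825, 0.652 and 0.543 CPM in Low and at 0.579, 0.218, 0.572 and 0.206 CPM in High, and the fractions overlapped. Its difference of −0.94 (SE 0.45, adjusted p 0.117, edgeR) did not pass, although all 4 animals had less Hey1 in High. It passed with scaling by total counts only (−1.44, adjusted p 0.0354 by edgeR) and without High Male1 (−1.35, adjusted p 0.0478 by edgeR). The log2 ratio of Hey1 to Hes1 differed by −0.32 between the fractions (exact permutation test of 4 against 4 libraries, two-sided, p 0.571).

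Of the further Hes and Hey genes, 1 of the 4 tested passed (25% beside 48.7% of all genes; also 1, higher, under total counts only, beside 12.6%). It was Hes2, at 1.09 ± 0.35 and 3.92 ± 0.87 CPM with a log2 fold change of 1.83 (SE 0.31, adjusted p 0.000865, edgeR), named after its value was seen. Heyl, a target known from vascular smooth muscle, had 10 to 20 counts in Low and 0 to 35 in High, with none in High Male2. Its difference of 0.32 (SE 0.76, adjusted p 0.771, edgeR) did not pass. Hes5, with 0 to 6 counts per library, was not tested, and a count of 0 allows up to 3 counts.

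Nrarp, an ankyrin-repeat protein that is induced by Notch and limits its signal, rose where Hes1 fell. It was at 16.3, 22.2, 12.1 and 32.4 CPM in Cyto-ID Low and at 93.0, 134, 104 and 242 CPM in Cyto-ID High. All High libraries lay above all Low libraries, and within each fraction Male2 had the most. Nrarp rose by 2.76 (SE 0.37, adjusted p 0.000203, edgeR), and in the annotation 79.4% of its exon length is overlapped on the other strand by Gm38287, which had no count in any library.

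Ordered by level per length, the 10 genes in Cyto-ID Low ran from Hes1 through Jag2 (65.4 ± 6.5 CPM per kb), Dlk2 (41.1 ± 12.5), Notch1, Jag1 (28.2 ± 6.6), Dll1 (22.1 ± 4.4), Lfng (8.74 ± 0.88), Notch2 and Notch3 to Hey1 (0.326 ± 0.108). The values of neighbours overlapped from Dlk2 down to Dll1 and again from Lfng down to Notch3. In Cyto-ID High the order was Hes1, Jag1 (48.9 ± 6.3), Notch3, Notch2, Notch1, Jag2 (4.88 ± 1.41), Dlk2 (1.83 ± 1.40), Dll1 (1.28 ± 0.47), Lfng (0.701 ± 0.234) and Hey1 (0.162 ± 0.087). Neighbours overlapped there from Jag1 down to Notch2 and from Jag2 down to Lfng. Hes1 stood first and Hey1 last in both fractions, and Jag2 went from the second place to the sixth.

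**Figure D3:**
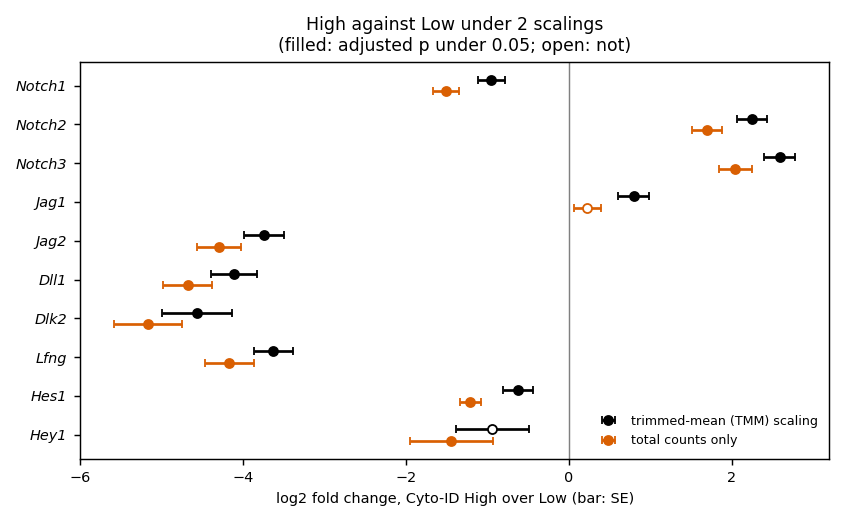
Log2 fold change of each Notch gene in Cyto-ID High over Cyto-ID Low with its SE, under trimmed-mean scaling (black) and scaling by total counts only (orange), with filled points for an adjusted p under 0.05. All 10 genes keep their direction, Jag1 passes only under trimmed-mean scaling and Hey1 only under total counts.

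The choice of scaling moved these values. The keratins Krt4 and Krt13 took 0.858% to 2.53% of the counts in Low and 10.8% to 14.0% in High. Under total counts only, log2 fold changes moved by a median of −0.56, and 2194 genes (12.6%) were called higher and 8514 (49.1%) lower, 61.7% in all, in place of 4055 and 4385. Of the 10 Notch genes 2 were then called higher and 7 lower. All 10 Notch genes kept their direction under this scaling and under relative log expression size factors.

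The rest of the pathway was examined through 56 further genes, of which 51 could be tested, and 12 rose and 14 fell in Cyto-ID High. That is 51.0% of those tested, beside 48.7% of all genes, with a median log2 fold change of −0.12. Under total counts only, 8 were called higher and 29 lower, beside 12.6% and 49.1% of all genes, and of the genes named below Aph1b, Maml3, Kat2b, Numb and Nrarp still passed, at 0.74, 0.66, 0.49, 0.33 and 2.15. The lower genes Poglut1, Cir1 and Dtx3l were then at −1.26, −1.27 and −1.62.

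Receptor processing and cleavage counted 10 tested genes, 4 higher and 1 lower, or 50% called beside 48.7% of all genes. Under total counts only the balance turned, with 2 higher and 3 lower (12.6% and 49.1% of all genes) and a median log2 fold change of −0.23 in place of 0.32. The lower gene was Furin, a protease that trims the receptor on its way to the surface, at 122 and 77.9 CPM (log2 fold change −0.65, SE 0.18, adjusted p 0.0124, edgeR), named after its value was seen. Aph1b, a subunit of gamma-secretase, rose by 1.31 (SE 0.19, adjusted p 0.000331, edgeR), from 10.2 ± 1.6 to 25.2 ± 4.7 CPM, although reads could be shared with its close copy Aph1c. The ADAM genes Adam10 and Adam17, for the first cut and also named after their values were seen, differed by 0.32 and 0.29 and did not pass (edgeR adjusted p 0.122 and 0.144). Their sign turned under total counts only, to −0.25 and −0.28, again without passing.

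In the nucleus, the 7 tested genes of the activating complex included 2 that rose and 2 that fell (57.1% called beside 48.7%; 2 and 5 under total counts only, beside 12.6% and 49.1%), and the Mastermind-like coactivators were split. Maml2 fell by 2.07 (SE 0.22, adjusted p 5.86e-05, edgeR), from 38.8 ± 6.2 to 9.25 ± 2.58 CPM, while Maml3 rose by 1.25 (SE 0.18, adjusted p 0.000394, edgeR), from 30.6 ± 4.7 to 73.5 ± 19.3 CPM (SD, n = 4 each). Maml1, named after its value was seen, fell by 0.49 (SE 0.15, adjusted p 0.0224, edgeR). Kat2b, an acetyltransferase recruited to that complex, rose by 1.06 (SE 0.17, adjusted p 0.000694, edgeR). Rbpj itself was at 34.6 ± 3.0 and 26.4 ± 4.4 CPM. Its difference of −0.39 (SE 0.15) did not pass, with an edgeR adjusted p of 0.0587, but did so with the animal as a replicate block, at an adjusted p of 0.0404. Over all settings its adjusted p ran from 9.87e-05 to 0.179, always with a lower level in High. Without both libraries of Female2 it passed, at −0.51 (adjusted p 0.019 by edgeR).

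Corepressors that bind Rbpj or its partners counted 10 tested genes, 1 higher and 4 lower, or 50% called beside 48.7% of all genes. Under total counts only, 0 were higher and 9 lower, where 12.6% and 49.1% of all genes were. Tle2, of the Groucho family that works with Hes proteins, fell by 1.73 (SE 0.19, adjusted p 6.8e-05, edgeR), and Cir1, a small corepressor, by 0.71 (SE 0.18, adjusted p 0.00829, edgeR). Without both libraries of Female2 Cir1 no longer passed, at −0.65 (adjusted p 0.0568 by edgeR).

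Among 10 genes of turnover and inhibition, Nrarp included, 4 rose and 5 fell (90% called beside 48.7%), and under total counts only 3 rose and 6 fell, beside 12.6% and 49.1% of all genes. Numb, an adaptor that sends Notch to endocytosis, was at 43.2 ± 4.1 and 81.7 ± 19.6 CPM and rose by 0.92 (SE 0.18, adjusted p 0.00245, edgeR). The Deltex ubiquitin ligases Dtx3 and Dtx3l fell by 1.78 (SE 0.35, adjusted p 0.00206, edgeR) and by 1.05 (SE 0.24, adjusted p 0.00477, edgeR). Dtx3 was the less even of the pair in High, with 11.1, 3.27, 8.16 and 4.48 CPM. Of the 4 genes for ligand endocytosis, 1 was called (25% beside 48.7% of all genes), Neurl1b, at −3.10 (SE 0.48, adjusted p 0.000536, edgeR), named after its value was seen. With total counts only, 3 of these 4 were called lower, beside 49.1% of all genes.

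**Figure D4:**
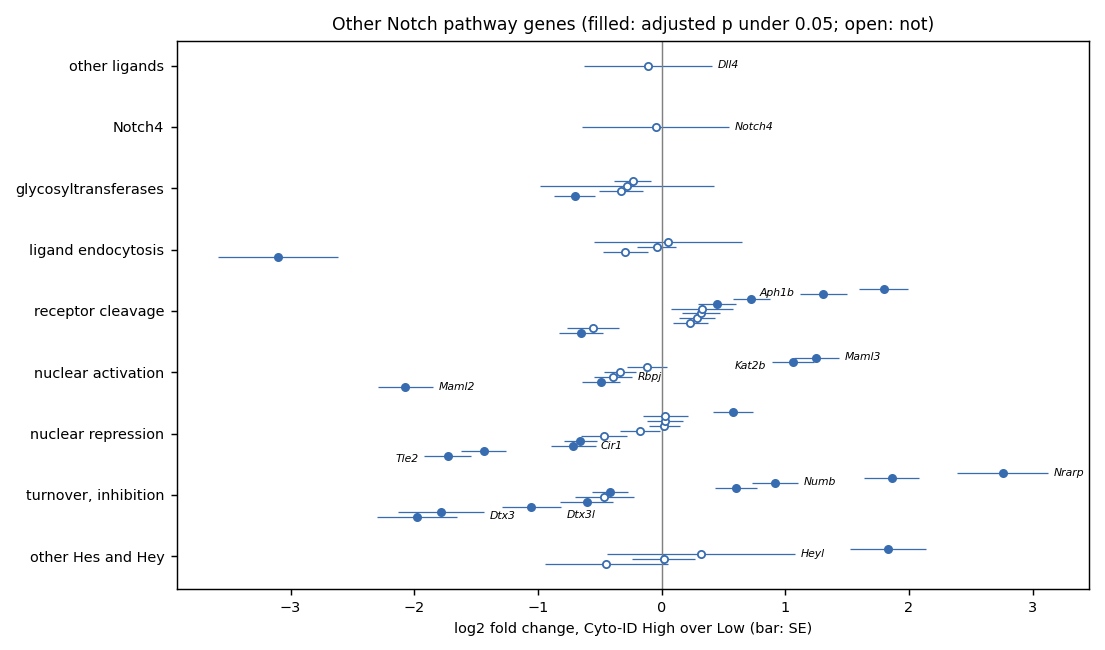
Log2 fold change in Cyto-ID High over Low with its SE for the 51 tested genes of the rest of the Notch pathway, in rows by role, with filled points for an adjusted p under 0.05. Nrarp lies farthest to the right at 2.76, Neurl1b farthest to the left, and the gamma-secretase, coactivator and inhibitor rows hold genes on both sides of 0.

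Whether males and females differed in the size of these changes was tested with an interaction term in edgeR. None of 17344 genes passed (0%) and 19 had an unadjusted p under 0.05, far fewer than 5% of the genes. With the animal as a replicate block 0 genes passed as well. The test was thus conservative, and the reason was not tested. With 2 animals of each sex, no statement on a dependence on sex is drawn from it. None of the 10 Notch genes was among them, the smallest unadjusted p being 0.144, for Notch3.

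Genes whose log2 CPM followed that of a Notch gene most closely over the 8 libraries were taken from 10007 genes with at least 5 CPM. All points share the difference between the 2 fractions, and the correlations are a description. For Notch3 the closest was Notch2 (Pearson's r 0.998), followed by Nbeal2 (0.997) and Mfsd7a (0.996). For Dlk2 the closest were Gpnmb (0.999), Myg1 (0.997) and Papln (0.996). For Notch1 they were Whrn (0.986), Tmem131l (0.985) and Csnk1e (0.984).

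In the annotation, exons of 5 of the 10 genes overlap those of another gene. Reads of overlapping genes cannot be told apart here, as the strand setting of the counting is not given in the sources used here. For Notch1 the overlapped parts are 7.50% of the exon length by 0610009E02Rik and 2.91% by Gm13568, for Notch2 5.02% by Gm42820 and for Notch3 6.03% by Gm17276, and none of these had more than 49 counts in a library. Dlk2 shares 2.41% with Abcc10, which had 170 to 786 counts per library, and Dll1 shares 20.6% with A930024N18Rik, for which no counts were matched here. Of the pathway genes named above, Dtx3l shares 8.0% with Parp9 (227 to 732 counts per library) and Cir1 3.20% with Scrn3 (160 to 561 counts), and their values carry the same uncertainty.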

How the data were processed

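Bulk RNA-seq libraries of 8 sorted cell fractions were analysed, 4 Cyto-ID Low and 4 Cyto-ID High. The authors deposited raw counts per gene symbol, a unit read from the values, all whole and with library totals that differ. STAR 2.7.3, DESeq2 and the build GRCm38 are named in the submitters' processing notes, without their roles. The counting tool, annotation and strandedness are not given in the sources used here.

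Genes were kept by filterByExpr and TMM-scaled in edgeR 4.0.16 (R 4.3.3). High was tested against Low with glmQLFit and glmQLFTest over all 8 libraries, sex as a covariate, two-sided, with Benjamini-Hochberg adjustment over 17344 genes. The fits were tested on simulated data with few changed genes and no effect of the animal, which do not speak for the pairing or the scaling. Log2 CPM use a prior count of 2, and an SE is the size of the log2 fold change over the root of F. Gene positions, transcript lengths and overlaps are from GENCODE M21 (GRCm38). The same-named libraries were sorted from 1 animal, per the labels. Their deviations from the fraction means correlated at 0.43, 0.32, −0.02 and 0.28 for Female1, Female2, Male1 and Male2, across genes, which are not independent replicates.

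The members, gene lists, ratios and tests were chosen with earlier results of these data known. All 10 members were named. Of 56 other pathway genes, those named passed the test with 1 sign in all 4 animals and averaged 5 CPM or more over the 8 libraries, the 6 with the largest change per direction, besides Rbpj, Notch4, Dll4, Hes5, Heyl and Nrarp; 2 of those chosen are not reported here. Other pathway genes are marked as named after their values were seen. For Notch1, Notch3 and Dlk2, 3 like genes were named, leaving out predicted and Rik symbols.

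Alternatives were RLE size factors, total counts only, no filter, a minimum of 10 counts per library, DESeq2 1.42.0, limma-voom (limma 3.58.1), robust dispersion, the animal as a replicate block, no covariate, each library left out and, for ratios, a prior count of 0.5 and a sign-flip test. Leaving out both libraries of Female2 or of Male2 was added after seeing the data.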

Additional observations from a re-analysis of the deposited data

Results flagged for a closer look

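A value far from the other 3 of its fraction was looked for with Dixon's test in 82 sets of 4 libraries, of which chance picks about 1 in 20, and 4 were found. Hes1 was at 359 CPM in High Male2 and at 204 to 228 CPM in the other 3 High libraries. The log2 ratio of Notch3 to Notch1 was −2.40 in Low Male1 and −1.98 to −1.93 in the other Low libraries. The 8 gastric markers summed to 18.6 CPM in Low Female2, against 0.211 to 0.463 CPM in the other Low libraries, and to 115 CPM in High Female2, against 0.347 to 1.03 CPM in the other High libraries. The part of gastric transcripts in the Notch results was not tested. Without both libraries of Female2, Hes1 differed by −0.61 (edgeR adjusted p 0.0565) and the other 8 called Notch genes stayed past the threshold.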

How the results depend on the processing

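Over 19 settings, 7 of the 10 Notch genes changed neither direction nor call, the exceptions being Jag1, Hes1 and Hey1 as given above. The same held for 11 of the 16 pathway genes chosen by the naming rule, and not for Cir1, Rbpj, Notch4, Dll4 and Heyl. The count of genes that differed ran from 7269 to 10708, and the fit with the animal as replicate block gave 9336, which added Rbpj and lost no call among the named genes. Under total counts only, 29 of the other pathway genes were lower in place of 14. The 3 genes Notch4, Dll4 and Heyl, near the detection limit, changed sign without passing. Notch4 was at 0.029 with RLE size factors, 0.014 with DESeq2, and 0.10 and 0.37 without both libraries of Female2 and of Male2. Dll4 was at 0.00066 and 0.26 without these same pairs, and Heyl at −0.16 under total counts only and −0.084 with limma-voom. With 1 library left out, Notch4 ran from −0.68 to 0.31, Dll4 from −0.80 to 0.21, Heyl from −0.37 to 0.78 and the log2 ratio of Hey1 to Hes1 from −0.61 to 0.071. For the ratios of Notch2 and Notch3 to Notch1 (3.21 and 3.54) and of Jag2 and Dll1 to Jag1 (−4.60 and −4.96), a sign-flip test with the animal as replicate block leaves these values as they are by construction. With 4 pairs it cannot give an exact p below 0.125 (adjusted 0.156). A minimum of 10 counts per library removed Hey1, Notch4, Dll4 and Heyl. The cause of these changes was not tested. With 4 to 37 counts per library, the depth limits what can be said of Hey1.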

Other observations

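Some pathway genes with low levels also differed between the fractions, and they are named here after their values were seen. Neurl1b, a ubiquitin ligase that drives endocytosis of Notch ligands, was at 11.6, 5.58, 9.10 and 3.14 CPM in the Low libraries (Female1, Female2, Male1, Male2) and at 1.81, 0.609, 0.686 and 0.412 CPM in the High libraries. It thus fell beside the ligands Jag2 and Dll1, in 4 of 4 animals. The Deltex genes were split: Dtx1 rose from 1.05 ± 0.14 to 3.80 ± 0.19 CPM (log2 fold change 1.86, SE 0.22, adjusted p 0.000111 by edgeR), while Dtx4 fell from 3.19 ± 0.51 to 0.799 ± 0.271 CPM (−1.98, SE 0.32, adjusted p 0.000671 by edgeR; SD, n = 4 each). Hes7, known from the segmentation clock, had 2 to 10 counts in Low and 8 to 21 in High and was not tested.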
